A study of Mus musculus with 10 samples.

Results

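The 2 libraries described here are the EP300 WT replicates of a mouse study of liver tumours, 2 of 10 libraries in the series, and were chosen by their sample titles alone. EP300 is a histone acetyltransferase and transcriptional coactivator. The mice were C57BL/6J 129SV animals of genotype EP300f/f, so both alleles carried recombination sites, and they received AAV-TBG-GFP, a virus that makes green fluorescent protein under a hepatocyte-directed promoter and carries no recombinase. They ate DDC, a porphyrin-raising diet that injures the liver, and received the plasmid pT3-cMet, which carries the cMet receptor tyrosine kinase gene, by hydrodynamic tail vein injection. Treatment lasted 5 months. The labels give neither age nor sex. Livers were perfused, cells were sorted by flow cytometry, and sequencing libraries came from total RNA with the TruSeq RNA kit. The labels speak of pooled sequencing and tie no library to an animal, so the spread between the libraries may be technical. No contrast with other groups was made here, and no p-value was computed.

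Hepatocytes make most plasma proteins, among them albumin, transferrin, apolipoproteins, clotting factors, complement and protease inhibitors. They are rich in mitochondria and detoxifying enzymes. Fetal liver and many liver tumours make oncofetal products such as alpha-fetoprotein (Afp), glypican 3 (Gpc3) and the long noncoding RNA H19, while bile duct cells are known by keratins 7 and 19, Epcam and Sox9. A sorted fraction can also carry RNA of macrophages, endothelial cells, stellate cells and blood cells.

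Replicate 1 held 18575701 counts and replicate 2 held 18831671. Levels are given as CPM, the counts of a gene scaled to the total of its library, and 12618 genes had at least 1 CPM in both libraries. Ranks and shares are of counts, in which a long gene counts for more than a short one at the same number of molecules. Ratios between the levels of 2 genes are given per length, as TPM (counts per kb of merged exon, scaled to the same sum in each library). A gene with 0 counts may still have been present at up to 3 counts, which is 0.162 CPM in replicate 1 and 0.159 in replicate 2. That limit and every interval below cover counting error only. A gene-level count does not show whether an allele is intact, and Ep300 was counted at 63.7 and 59.2 CPM, beside 42.2 and 41 CPM for Crebbp, its close paralog, and 61.6 and 57.5 CPM for Met.

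Secreted hepatocyte proteins held, of all counts, 32.87% (95% interval 32.85% to 32.89%) in replicate 1 and 32.65% (32.63% to 32.67%) in replicate 2, over 163 gene identifiers. The mitochondrial genome, which encodes respiratory chain subunits and the RNAs to translate them, held 8.317% (95% interval 8.305% to 8.33%) in replicate 1 and 8.649% (8.636% to 8.662%) in replicate 2. Cytosolic ribosomal proteins held 1.462% (95% interval 1.457% to 1.468%) in replicate 1 and 1.501% (1.495% to 1.506%) in replicate 2. Markers of all other cell types together held 0.3246% (95% interval 0.322% to 0.3272%) in replicate 1 and 0.3228% (0.3203% to 0.3254%) in replicate 2. The oncofetal list held 0.08035% (95% interval 0.07907% to 0.08165%) in replicate 1 and 0.08034% (0.07906% to 0.08163%) in replicate 2, and the biliary and progenitor list held 0.06385% (95% interval 0.06271% to 0.06501%) in replicate 1 and 0.06543% (0.06428% to 0.0666%) in replicate 2. Secreted proteins thus took 409 times the oncofetal share in replicate 1 and 406 times in replicate 2. All 41 lists together covered 54.2% of counts and left 45.8% in no list.

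**Figure D1:**
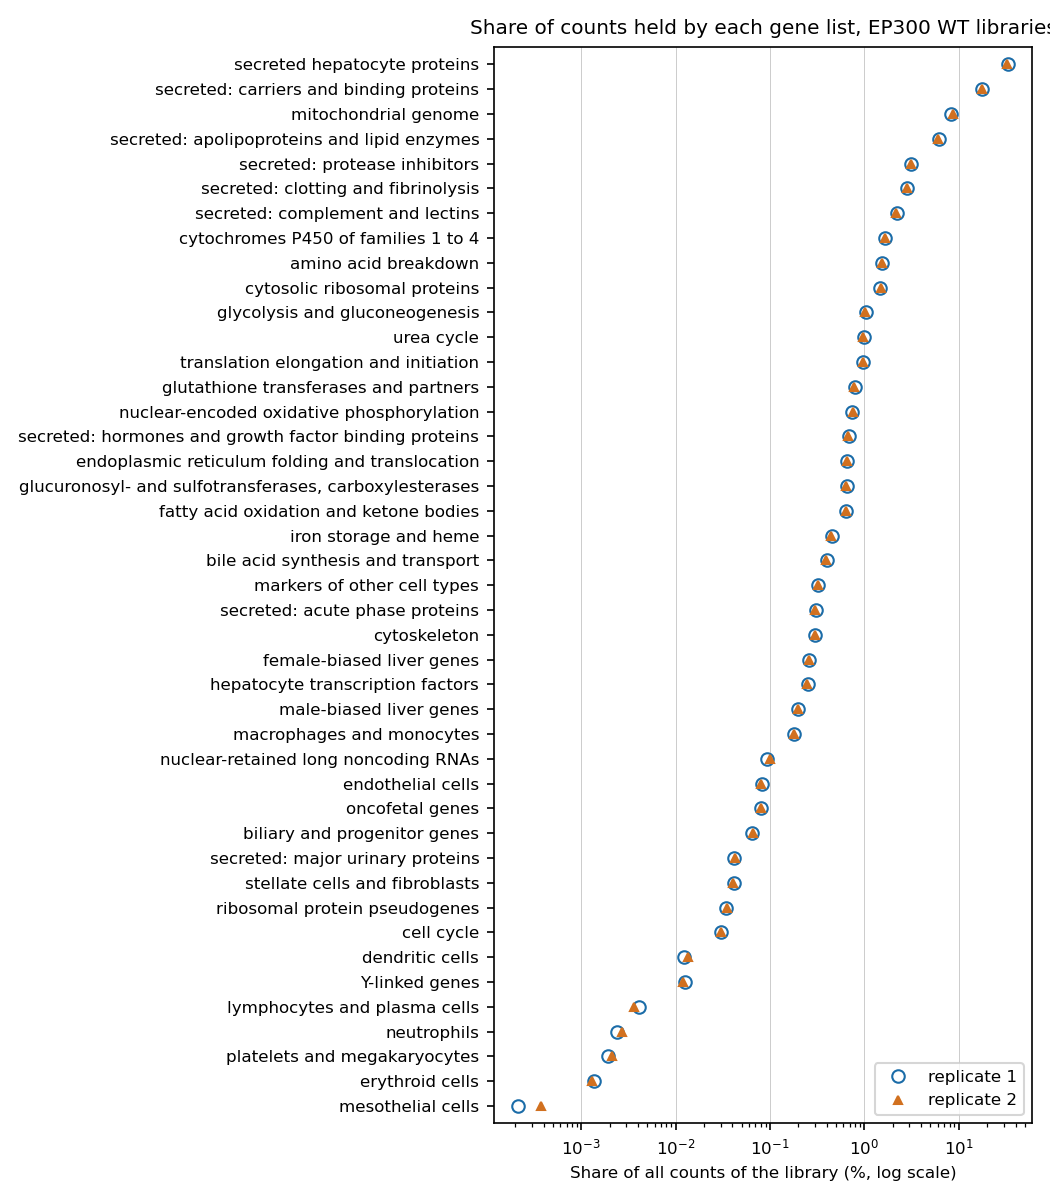
Share of all counts of the library (percent, log axis) held by each gene list, with an open circle for replicate 1 and a triangle for replicate 2. The secreted list lies at the top at 32.9% and 32.6%, the mesothelial list lies at the bottom, and the symbols of the libraries lie on top of each other for most lists.

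Counts were concentrated in few genes. Alb alone held 8.01% and 7.98% of counts, the 10 highest genes held 26.1% and 26.2%, and the 100 highest held 47.3% in each library. The 134 highest genes held 50% of counts and the 4115 highest held 90%. Of the 10 highest genes by mean CPM, 6 encode secreted proteins and 4 lie in the mitochondrial genome. Of the 25 highest, 17 were secreted, 6 were mitochondrial and 2 were neither: Scd1, the stearoyl-CoA desaturase that makes monounsaturated fatty acids, at 5447 and 5522 CPM, and Eef1a1, a translation elongation factor, at 4121 and 4071 CPM. The libraries shared 10 of their 10 highest genes, 24 of 25 and 98 of 100. Protein-coding genes held 98.8% and 98.7% of counts.

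**Figure D2:**
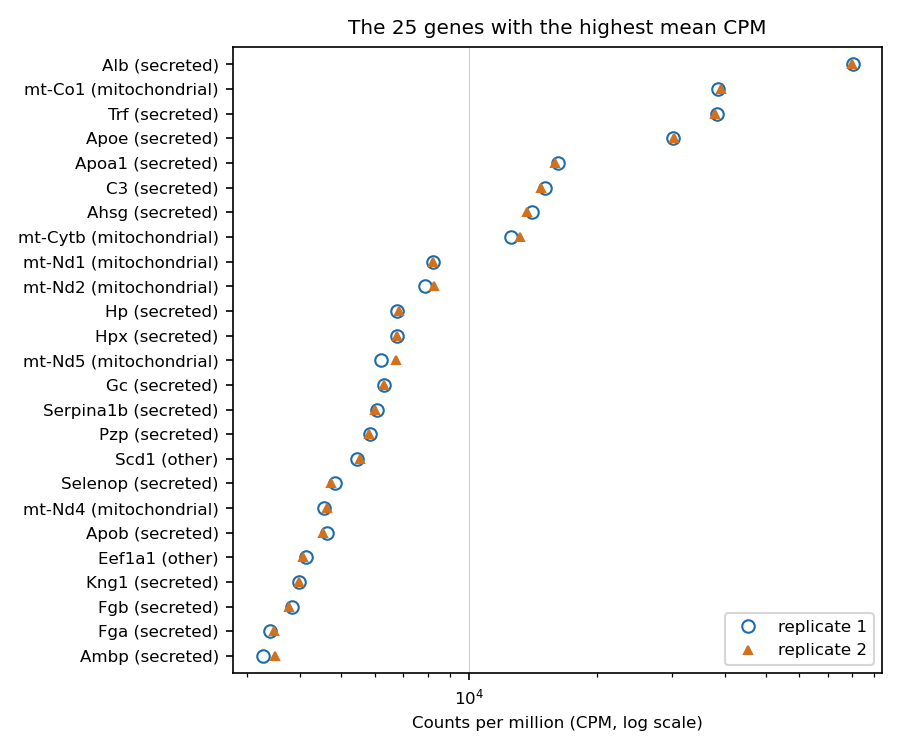
CPM (log axis) of the 25 genes with the highest mean CPM, each labelled as secreted, mitochondrial or other, with an open circle for replicate 1 and a triangle for replicate 2. Alb lies at 80093 and 79798 CPM, above mt-Co1 at 38647 and 39240.5 CPM and Trf at 38329 and 38055 CPM, and the 25th gene, Ambp, lies at 3267 and 3491 CPM.

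Carriers and binding proteins were the largest secreted class, at 17.6% and 17.5% of counts, and 3 genes held 75.4% of the class. Albumin (Alb, chr5:90460897-90476602), the main plasma carrier, was at 80093 and 79798 CPM. Transferrin (Trf, chr9:103204001-103230444), which carries iron, was at 38329 and 38055 CPM. Both libraries gave nearly the same level for each. Fetuin A (Ahsg), a mineral-binding glycoprotein, followed at 14079.6 and 13718 CPM. Haptoglobin (Hp), which binds free haemoglobin, was at 6759 and 6843 CPM, and hemopexin (Hpx), which binds heme, was at 6756 and 6754 CPM. The vitamin D carrier Gc was at 6304 and 6313 CPM. All 21 members of the class reached 1 CPM. Per length, Alb remained the highest gene of all at 86589.6 ± 841 TPM (SD, n = 2), and Trf ranked 5 where it had ranked 3 by CPM.

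Apolipoproteins and lipid enzymes held 6.13% and 6.1%, and again 3 genes held most of it, 83.3%. Apoe (chr7:19696109-19699188), a ligand for lipoprotein uptake, was at 30174 and 30387 CPM. Apoa1 (chr9:46228580-46230466), the main protein of high-density lipoprotein, was at 16195 and 15939 CPM. Apob, the large structural protein of very-low-density lipoprotein, was at 4634 and 4532 CPM. Length kept their order but changed the gaps between them. Per length Apoe had 35925 ± 76.4 TPM (SD, n = 2) and Apoa1 32976 ± 606 TPM (SD, n = 2), while Apob had 834 ± 19.1 TPM (SD, n = 2). The TPM of Apoa1 was 39.4 and 39.6 times that of Apob in replicates 1 and 2, and that of Alb was 2.42 and 2.40 times that of Apoe. Apoa2, the second protein of high-density lipoprotein, was at 2423 and 2427 CPM, and Apoa1 stood at 2.90 and 2.85 times its TPM. The lowest member was Apoc2, the activator of lipoprotein lipase, at 4.09 and 4.62 CPM, although its neighbours in the gene cluster, Apoc1 at 1007 and 988 CPM and Apoc4 at 234 and 243 CPM, were counted well.

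Protease inhibitors held 3.14% and 3.09%, clotting and fibrinolysis proteins 2.81% and 2.81%, and complement and lectins 2.2% and 2.17%. Serpina1b, an alpha-1 antitrypsin, was at 6075 and 6003 CPM, and Pzp, which traps proteases, at 5841 and 5826 CPM. Serpina3k, another serpin, was at 2858 and 2779.8 CPM. Serpina3c was the only inhibitor with no count in either library. Among clotting proteins, kininogen (Kng1) was at 3985 and 3975 CPM, and the fibrinogen chains Fgb and Fga were at 3824 and 3764 CPM for Fgb and 3397 and 3465 CPM for Fga. All 24 clotting genes reached 10 CPM. Complement was dominated by C3, the hub of the cascade, at 15075 and 14802 CPM, which with C4b at 1769 and 1704 CPM and Cfi, the factor that cleaves activated C3b, at 940.2 and 975 CPM held 80.9% of its class. C4b stood at 271 and 230.0 times the TPM of C4a, a close paralog that shares 96.0% of its transcript bases.

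A list of 14 acute phase proteins, which rise in plasma during inflammation, held 0.305% and 0.303%. It leaves out Hp, Hpx, C3 and the fibrinogen chains, which also belong to the acute phase but were placed in the classes above. Hp alone held 0.676% and 0.684%, so the list is only a part of the acute phase. Lrg1 was at 912 and 856 CPM, the lipid carrier Orm1 at 479 and 486 CPM and the siderophore-binding Lcn2 at 346 and 347 CPM. The serum amyloid A genes Saa1 and Saa2 were counted at 56.7 and 59.4 CPM for Saa1 and 35.4 and 37.5 CPM for Saa2. Hormones and growth factor binding proteins held 0.693% and 0.676%. Igfbp1 (chr11:7197782-7202546), which binds insulin-like growth factors and marks hepatocyte stress and fasting, had the highest CPM of the list, at 2406 and 2338 CPM and ranked 42 among all genes by CPM. Igfbp4 was at 1943 and 1878 CPM, and angiotensinogen (Agt), the precursor of angiotensin, at 619 and 606 CPM. Igf1, the growth hormone-driven growth factor, was at 396 and 389 CPM.

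Major urinary proteins, small lipid-binding proteins that carry pheromones, are abundant in the liver of many adult mice. Here they held only 0.0418% and 0.0423%. Of 22 genes, 12 had no count in either library and 19 lay under 1 CPM. Mup20 was at 376 and 380.2 CPM, Mup3 at 38.4 and 38.1 CPM and Mup21 at 3.28 and 3.61 CPM. These 3 held 99.9% of the class. Their closest match over at least 50% of the transcript shared 94.9% to 95.2% of the aligned bases. Among the 19 under 1 CPM, 16 shared at least 98% with another transcript, with a median of 99.7%, and Mup4, Mup5 and Mup6, at 91.9% to 92.4%, had no count either. The labels and processing notes do not say how reads that fit several genes were counted, and the part of such reads in these low values was not tested.

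Some other low members lay under a second gene model. In 5 secreted genes in the table, at least 25% of the exon bases were shared with a longer model of the same strand. Apoc2, with 79.5% of its exon bases under Gm44805, had 76 and 87 counts, and the complement factor Cfb, with 79.5% under Gm20547, had 489 and 538 counts. C2, Klkb1 and Serpina11 were the others, at 39.9 CPM, 79.4 CPM and 24.6 CPM. Each overlapping model had 2 or fewer counts in each library. Trf also shares 63.5% of its exon bases, with Gm20425, but that model is not in the count table, and Trf ranked 3 among all genes. Models of the opposite strand were left out of this count, although the kit does not mark strand. Some well-counted secreted genes lay under such models. Apoa4 shared 69.8% of its exon bases, mainly with Gm47528, and was at 966 and 885 CPM. Serpinc1 shared 34.4%, mainly with Zbtb37, and was at 2014 and 2075 CPM. The part of the overlap in these values was not tested.

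Promoters were read from RefSeq (GRCm38.p6), 250 bases before and 50 after a gene's start, and the letters GTTAAT were chosen among 14 motifs after values had been seen. On either strand of the 250 bases GTTAAT occurred in 33 of 130 promoters (25.4%) of secreted genes other than major urinary proteins, of which 112 genes matched the table. It occurred in 6.43% of all 32851 promoters and in 4.49% of those of genes with at least 1 CPM. In the 25 bases from 40 to 16 before the start, TATAAA, the letters of a TATA box, occurred in 9.23% of the same secreted promoters and in 1.99% of all. GGGCGG, the core of a GC box, ran the other way, at 13.1% against 32.7%. Base composition differs between these groups of promoters and was not matched. The 4 secreted genes with the highest mean CPM that hold GTTAAT in the last 100 bases before the start are shown to let a reader see the letters, in capitals, in their context. They lie at chr5:90460770-90460869 on the plus strand (Alb) and, on the minus strand, at chr5:89457899-89457998 (Gc), chr12:103738190-103738289 (Serpina1b) and chr6:128526721-128526820 (Pzp). These are RefSeq starts, and in the GENCODE M21 annotation Serpina1b extends to chr12:103830373, so its window lies within that gene.
Alb: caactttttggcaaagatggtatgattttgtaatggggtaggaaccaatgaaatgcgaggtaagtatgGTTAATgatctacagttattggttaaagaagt
Gc: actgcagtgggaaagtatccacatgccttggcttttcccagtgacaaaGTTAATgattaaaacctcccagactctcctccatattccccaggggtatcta
Serpina1b: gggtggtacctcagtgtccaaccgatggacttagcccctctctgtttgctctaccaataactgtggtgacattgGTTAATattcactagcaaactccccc
Pzp: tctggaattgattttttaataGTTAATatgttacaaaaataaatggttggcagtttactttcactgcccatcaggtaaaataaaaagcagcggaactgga
A match of letters is a description and not a bound site.

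The mitochondrial genome took 8.32% and 8.65% of counts but 17.6% ± 0.584 (SD, n = 2) of TPM. Cytochrome c oxidase subunit 1 (mt-Co1, chrM:5328-6872) was at 38647 and 39240.5 CPM and held 45.9% of the group. Cytochrome b (mt-Cytb), of complex III, was at 12533 and 13213 CPM. The complex I subunits mt-Nd1 and mt-Nd2 were at 8216 and 8226 CPM for mt-Nd1 and 7865 and 8266 CPM for mt-Nd2. The 2 ribosomal RNAs of mitochondria together held 0.133% and 0.141% of counts. All 18 mitochondrial genes with a mean of at least 10 CPM were higher in replicate 2. Their median log2 ratio of replicate 2 to replicate 1 was 0.0616. Over all genes that median was -0.00637 for 10 to 100 CPM, -0.00409 for 100 to 1000 CPM and -0.0126 above. These medians were negative, so among all genes those higher in replicate 2 did not outnumber those lower.

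The 13 mitochondrial mRNAs are cut from long shared precursors, yet their TPM spanned from 418 to 63936. The 5 lowest, mt-Nd4l, mt-Atp6, mt-Co2, mt-Co3 and mt-Nd3, were the 5 that have a copy elsewhere in the annotation with at least 99% identity over at least 95% of the RNA. Their TPM ran from 418 to 3537, while the 8 others ran from 5130 to 63936, so the ranges did not overlap at that bound. Some of the others have less close or shorter copies. mt-Co1, the highest, matched Gm13340 with 97.6% identity over all 1545 bases, and Gm13340 had 834 and 904 counts. mt-Nd4 matched Gm28439 with no mismatch over 876 of 1378 bases. The copies of these 5, with parts of mt-Nd4 and mt-Co1, lie together in 7 unprocessed pseudogenes at chr1:24611535-24616197. Gm28661 matched mt-Co2 over 681 of 684 bases with no mismatch, Gm10925 matched mt-Atp6 over 678 of 681 and Gm28437 matched mt-Co3 over 783 of 784, also with none. Only annotated transcripts were searched, so a copy outside the annotation would be missed. mt-Atp8 lies between mt-Co2 and mt-Atp6 in the mitochondrial genome, and the bases between Gm28661 and Gm10925 were not searched for it. The 7 copies together had 10904 and 15614 counts. The part of reads that fit both places in these levels was not tested.

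The same 5 genes also held the largest disagreement between the libraries. mt-Nd3 had 428 counts in replicate 1 and 1733 in replicate 2, a 3.99-fold difference (95% exact interval 3.59 to 4.45, counting error only). mt-Co3 had 4546 and 14611 counts, a 3.17-fold difference (3.07 to 3.28). mt-Nd4l had 6029 and 9502 counts, 1.55-fold apart. The other members agreed, since mt-Co2 was 1.03-fold and mt-Atp6 1.00-fold apart. The 8 mRNAs without such an annotated copy were 1.00-fold to 1.33-fold higher in replicate 2, with mt-Atp8, which overlaps mt-Atp6, at the upper end. Among the copies, Gm10925 had 3948 and 6549 counts and Gm28661 had 2615 and 2761.

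mt-Nd3 and its copy Gm28438 are shown at their 5′ ends because a single base separates them over the 345 bases compared. Positions are counted from 1 at the 5′ end of the mt-Nd3 RNA, bases 1 to 27 are printed from the GENCODE M21 transcripts, and the capital marks the difference T3C.
mt-Nd3: atTaacctgtacactgttatcttcatt
Gm28438: atCaacctgtacactgttatcttcatt
Gm28438 had 38 and 43 counts, against 428 and 1733 counts for mt-Nd3.

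**Figure D3:**
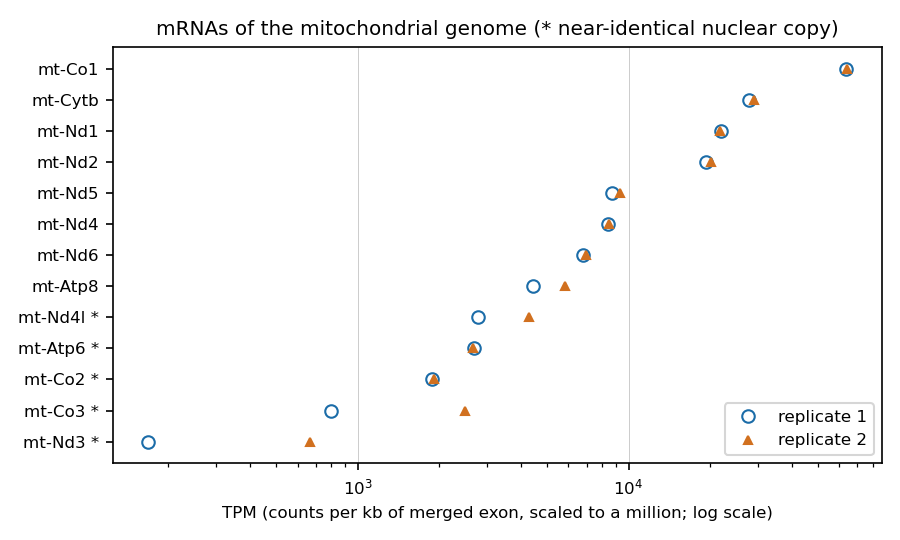
TPM (log axis) of the 13 mRNAs of the mitochondrial genome, with an open circle for replicate 1 and a triangle for replicate 2. The 5 RNAs with a near-identical nuclear copy in the annotation, marked by an asterisk, lie between 418 and 3537 TPM on average, below the 8 others. mt-Nd3 and mt-Co3 show the widest gaps between libraries.

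Nuclear-encoded subunits of oxidative phosphorylation held 0.739% and 0.76%, and the mitochondrial genome took 11.2 and 11.4 times that share by counts, and the ratio was 15.9 per merged exon and 9.61 per principal transcript. Atp5b and Atp5a1, the catalytic subunits of ATP synthase, were at 877 and 886 CPM for Atp5b and 645 and 629 CPM for Atp5a1, and Sdha, the flavoprotein of complex II, was at 314 and 337 CPM. Of 98 identifiers, 87 reached 1 CPM. Of the 80 with at least 10 CPM, 57 were higher in replicate 2. Their median log2 ratio of replicate 2 to replicate 1 was 0.0505. Over all genes it was -0.00637 for 10 to 100 CPM and -0.00409 for 100 to 1000 CPM. Both medians were negative, so among all genes those higher in replicate 2 did not outnumber those lower.

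Of 79 cytosolic ribosomal protein genes 77 reached 10 CPM, the 3 highest held only 12.5% of the group, and the median was 159 CPM. Rps2 was at 700.3 and 736 CPM, the stalk protein Rplp0 at 597 and 588 CPM and Rpsa at 552 and 540.1 CPM. Of the 77, 59 were higher in replicate 2, with a summed share of 1.46% and 1.5%. Their median log2 ratio of replicate 2 to replicate 1 was 0.0484. Over all genes it was -0.00637 for 10 to 100 CPM and -0.00409 for 100 to 1000 CPM. With both medians negative, genes higher in replicate 2 did not outnumber those lower among all genes. The middle 80% of genes lay between 59.2 and 307 CPM.

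Some ribosomal protein genes lay below that range of CPM. Rpl24 had 14 and 12 counts, Rps10 48 and 42 counts, Rpl13a 215 and 201 counts and Rpl21 619 and 615 counts. For Rpl24, Rps10 and Rpl13a, a second model of the same strand covers 28.7% to 47.0% of the exon bases, and these models had no count in either library. Near-identical copies took more counts than some of the genes: Rps10-ps2, 98.99% identical to Rps10 over 496 bases, had 840 and 939 counts. All 295 ribosomal protein pseudogenes together held 0.0342% and 0.0348%, and the ribosomal protein genes took 42.8 and 43.1 times as much by counts. The ratio was 13.1 per merged exon and 23.7 per principal transcript.

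CTTCCG, on either strand the core of sites bound by ETS-family factors, occurred in 34 of 68 promoters (50%) of ribosomal protein genes, of which 58 genes matched the table. It occurred in 13.6% of all promoters, in 23.9% of those of genes with at least 1 CPM and in 6.92% of the secreted set. For nuclear-encoded oxidative phosphorylation genes the share was 34.2%. TATAAA in the same window as above occurred in none of the 68, and GTTAAT occurred in 4.41%. CTTCCG was picked from the same 14 motifs. Base composition was not matched here either, and GGGCGG occurred in 48.5% of ribosomal protein promoters against 13.1% of the secreted set. The letters are again a description and not a bound site. The promoters with CTTCCG in the last 100 bases of the 3 ribosomal protein genes with the highest mean CPM among those that hold it are shown beside the secreted set above, with CTTCCG or its complement CGGAAG in capitals. They lie at chr9:120127666-120127765 (Rpsa) and chr9:64173287-64173386 (Rpl4) on the plus strand and at chr4:86857368-86857467 (Rps6) on the minus strand. These windows end at RefSeq starts. In GENCODE M21 the genes start inside them, at chr9:120127689 (Rpsa), chr9:64173375 (Rpl4) and chr4:86857412 (Rps6). Some of the letters in capitals thus lie within the GENCODE genes.
Rpsa: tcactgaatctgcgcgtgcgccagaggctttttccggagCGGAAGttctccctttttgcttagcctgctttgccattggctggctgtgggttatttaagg
Rpl4: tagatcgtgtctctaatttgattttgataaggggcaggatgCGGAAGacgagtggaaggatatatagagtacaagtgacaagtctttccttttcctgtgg
Rps6: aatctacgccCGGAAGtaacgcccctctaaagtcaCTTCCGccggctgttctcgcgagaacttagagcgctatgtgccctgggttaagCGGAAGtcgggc

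The oncofetal list summed to 0.0804% and 0.0803% over 25 genes. Gpc3 (chrX:52272426-52613950), a cell-surface proteoglycan, was its highest member at 170 and 175 CPM. Scd2, a desaturase of fetal liver, was at 166 and 166 CPM, and H19 (chr7:142575529-142578143), an imprinted noncoding RNA, at 145 and 147 CPM. These 3 held 60.2% of the list. Afp (chr5:90490737-90508907), which lies beside Alb on chromosome 5, was at 106 and 103 CPM, and the TPM of Alb was 1088 and 1119 times that of Afp. Ly6d was at 81.8 and 80.5 CPM, Tff3 at 40.2 and 42 CPM and Meg3 at 36.3 and 33.7 CPM. Per length, Ly6d with 277 TPM stood above Gpc3 with 163 TPM, H19 with 150.1 TPM and Afp with 78.5 TPM.

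Most of the list was low. Of the 25 genes, 17 reached 1 CPM and 4 reached 100. The imprinted Igf2, which shares its enhancers with H19, had 19 and 8 counts, against 2687 and 2759 counts for H19. Dlk1 and Mest, also imprinted and fetal, were at 1.23 CPM and 3.82 CPM. Sall4, Lin28b and Igf2bp1, an embryonic transcription factor and RNA-binding proteins of fetal tissues, had no count in either library.

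The biliary and progenitor list held 0.0639% and 0.0654% over 30 genes. Its leading members were Alcam, an adhesion molecule, at 133 and 140 CPM, osteopontin (Spp1) at 129 and 130.4 CPM and the water channel Aqp1 at 97.2 and 98.1 CPM. The defining duct markers had few counts: Sox9 had 195 and 171 counts, Epcam 18 and 33 counts, Krt19 14 and 9 counts, Krt7 10 and 6 counts and Cftr 2 and 4 counts. Gp2 had none. Krt8 and Krt18, the keratins that hepatocytes also make, were at 649 and 653 CPM for Krt8 and 430 and 426 CPM for Krt18. The TPM of Krt8 was 816 and 1295 times that of Krt19, a ratio set by the 14 and 9 counts of Krt19. Of the 30 genes, 20 reached 1 CPM, and the middle gene lay at 4.70 CPM. Spp1 and Aqp1 are also made by macrophages and by endothelial cells and red cells, so the summed share does not measure duct cells alone.

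Markers of 9 other cell types, 124 genes in all, together held 0.325% and 0.323%. Macrophages and monocytes led with 0.179% and 0.179%, endothelial cells had 0.0814% and 0.0799%, and stellate cells and fibroblasts had 0.0417% and 0.0404%. The macrophage share was 2.20 and 2.24 times the endothelial share by counts, and the ratio was 5.77 per merged exon and 4.66 per principal transcript. In bulk RNA, fewer cells of a type and less RNA per cell cannot be told apart, so these shares are not cell numbers.

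All 23 macrophage genes reached 1 CPM. Mpeg1, a pore-forming protein of phagocytes, was at 305 and 311 CPM, Cd5l at 258 and 262 CPM and lysozyme (Lyz2) at 238 and 235 CPM. The Kupffer cell lectin Clec4f was at 72.8 and 77.6 CPM, and Timd4, found on long-resident Kupffer cells, was at 3.18 and 2.76 CPM. Csf1r, the receptor for the macrophage growth factor, was at 110.3 and 112 CPM. Ccr2, a receptor of recruited monocytes, was at 5.44 and 4.73 CPM, and Gpnmb and Trem2, made by lipid-handling macrophages, were at 147 and 148 CPM for Gpnmb and 14.6 and 14.6 CPM for Trem2. The 3 chains of complement C1q, which macrophages make, ran from 139 to 261 TPM.

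All 20 endothelial genes reached 1 CPM too, in a narrower band of 4.49 CPM to 110.1 CPM. Ptprb, an endothelial phosphatase, was at 113 and 107 CPM. The scavenger receptors of liver sinusoids, Stab1 and Stab2, were at 94.2 and 93.2 CPM for Stab1 and 77.1 and 81.1 CPM for Stab2, and Pecam1 and Cdh5, general endothelial junction proteins, were at 33.3 and 32 CPM for Pecam1 and 48.5 and 46.9 CPM for Cdh5. In stellate cells and fibroblasts, 18 of 21 genes reached 1 CPM. Reelin (Reln) was at 122 and 115 CPM, decorin (Dcn) at 81.2 and 83.8 CPM and biglycan (Bgn) at 66.7 and 64.2 CPM. Lrat, which stores vitamin A in quiescent stellate cells, was at 8.94 and 10.7 CPM. Among genes of activated stellate cells, Col1a1 was at 22.3 and 19.6 CPM, Acta2 at 3.18 and 2.18 CPM and Timp1 at 1.83 and 1.22 CPM.

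Blood cells left little. Lymphocytes and plasma cells held 0.00409% and 0.00365%, of which the immunoglobulin chains Igkc, Ighm and Igha held 84.8%, with Igkc at 17.1 and 14.5 CPM. Neutrophil genes held 0.00241% and 0.00271%, with the receptor Csf3r at 7.59 and 8.34 CPM , S100a9 at 3.71 and 5.04 CPM and Ngp at 3.61 and 4.41 CPM. Erythroid genes held 0.00136% and 0.00131%, with Alas2 at 6.46 and 6.37 CPM, Hbb-bs at 3.12 and 1.75 CPM and Klf1 at 1.99 and 2.18 CPM. Platelet genes held 0.00193% and 0.0021%, led by Itgb3 at 13 and 13.4 CPM, Itga2b at 3.82 and 4.57 CPM and Pf4 at 1.62 and 1.91 CPM, and Gp1bb had no count. Dendritic cell genes held 0.0122% and 0.0136%, but Bst2, an interferon-induced protein of many cells, made up 85.2% of that, while Itgax was at 15.3 and 12.6 CPM and Clec9a at 2.85 and 3.03 CPM. The mesothelial list was the lowest at 0.000215% and 0.000372%, with Lrrn4 at 0.646 and 1.38 CPM, Msln at 0.431 and 1.12 CPM and Upk3b at 0.538 and 0.637 CPM, and it rests on 40 and 70 counts in all.

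**Figure D4:**
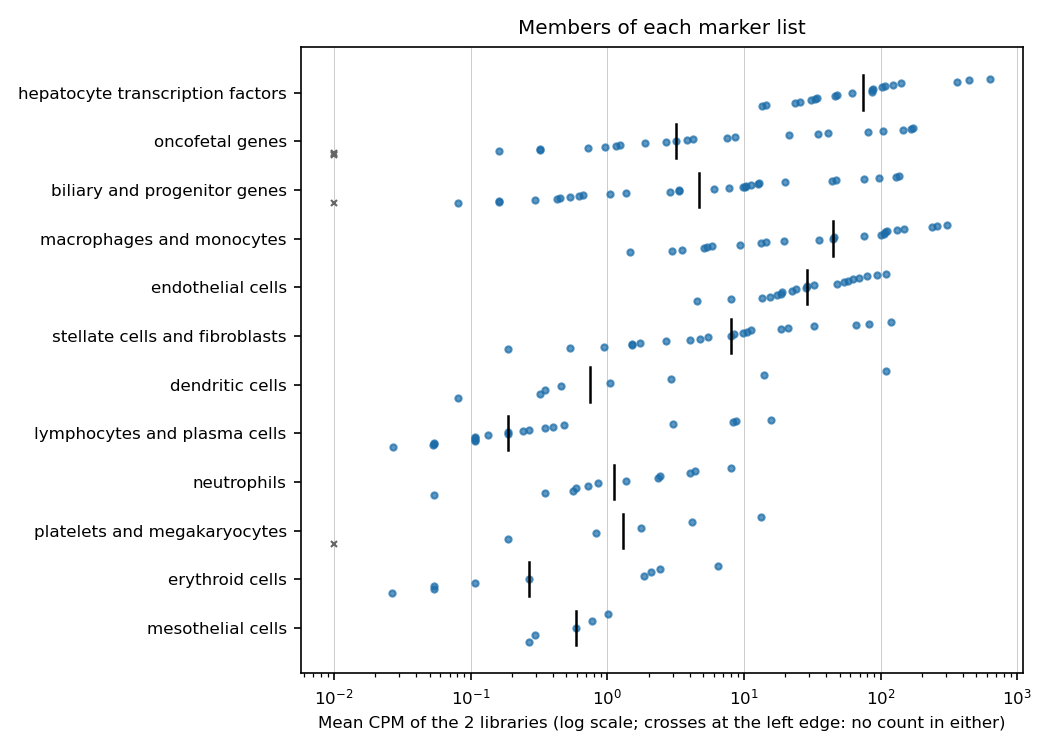
Mean CPM of the 2 libraries (log axis) for each member of the marker lists, as points, with the list's median as a black line and members without a count as crosses at the left edge. All 20 hepatocyte transcription factors lie above 10 CPM, the macrophage and endothelial medians lie at 44.8 and 28.7 CPM, and the medians of the lymphocyte, erythroid, neutrophil and platelet lists lie at 0.187, 0.267, 1.11 and 1.3 CPM.

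The factors that set hepatocyte identity were all counted. Hnf4a, a nuclear receptor that drives many liver genes, was at 633 and 633 CPM, Cebpa at 454 and 432 CPM and Rxra, the partner of many nuclear receptors, at 373 and 352 CPM. The other 17 ran from 13.4 CPM (Tcf7l2) to 139.8 CPM (Prox1). The hepatocyte markers Alb, Trf and Apoa1 were among the 5 highest genes of both libraries, and the highest CPM among the marker genes of other cell types was that of Mpeg1, 308 on average.

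Cytochromes P450 of families 1 to 4, which oxidise drugs, steroids and fatty acids, held 1.65% and 1.66%, and 54 of 75 genes reached 1 CPM. Cyp2a5 was at 2826 and 2776 CPM, Cyp2e1, which oxidises ethanol, at 2365 and 2374 CPM and Cyp3a11, which handles many drugs and bile acids, at 2229.6 and 2430.3 CPM. Cyp2a4 was at 2177 and 2128 CPM, and it shares 98.2% of its transcript bases with Cyp2a5, so the split between them is uncertain. Glutathione transferases and partners held 0.797% and 0.775%, led by Gstm1 at 2802 and 2579.9 CPM, Gsta3 at 1091 and 1128 CPM and Mgst1 at 914 and 935 CPM. Glucuronosyl- and sulfotransferases and carboxylesterases held 0.654% and 0.638%, led by Ces1c at 2553 and 2432 CPM, Sult1a1 at 510.3 and 491 CPM and Ces1d at 414 and 412 CPM.

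The urea cycle, with glutamine synthetase, held 0.984% and 0.979%. Cps1, its entry enzyme, was at 3225 and 3177 CPM, Ass1 at 2252 and 2167 CPM and Arg1 at 1452 and 1546 CPM. Glul, which makes glutamine around central veins, was at 1471 and 1468 CPM, and its TPM was 0.763 and 0.772 of that of Cps1. Amino acid breakdown held 1.53% and 1.53%, with Mat1a, which makes S-adenosylmethionine, at 3048 and 3033 CPM, tyrosine aminotransferase (Tat) at 2097 and 2113 CPM and Ahcy at 1336 and 1384 CPM. Glycolysis and gluconeogenesis held 1.03% and 1.02%, with Pck1, the gate of gluconeogenesis, at 3401 and 3316 CPM and Ldha at 665 and 673 CPM. Fatty acid oxidation and ketone bodies held 0.642% and 0.645%, with Cpt1a at 534 and 523 CPM. Every member of the urea cycle, amino acid and fatty acid lists reached 10 CPM.

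Iron storage and heme genes held 0.451% and 0.444%. The ferritin chains Fth1 and Ftl1 were at 2133 and 2122 CPM for Fth1 and 988 and 966 CPM for Ftl1. Alas1, the rate-limiting enzyme of heme synthesis in liver, was at 500.3 and 472 CPM, and ferrochelatase (Fech), the last step of that pathway and the enzyme that DDC is known to block, was at 147 and 138 CPM. Bile acid synthesis and transport held 0.4% and 0.392%, with the canalicular pump Abcc2 at 773 and 753 CPM, Slc27a5 at 684 and 675 CPM and the sinusoidal export pump Abcc3 at 465 and 451 CPM. The endoplasmic reticulum list, which folds and moves secreted proteins, held 0.657% and 0.66%, led by P4hb at 1345 and 1306 CPM, Hspa5 at 767 and 767 CPM and Calr at 593 and 594 CPM. Translation factors held 0.974% and 0.958%, with Eef2 at 2534 and 2395 CPM and Tpt1 at 634 and 627 CPM. The cytoskeleton list held 0.303% and 0.301%, with Actb at 575 and 539.8 CPM.

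Cell cycle genes were low, at 0.03% and 0.0304% over 32 genes, all of at least 1 CPM and none of 100. Cyclin D1 (Ccnd1) was at 53.2 and 48.6 CPM, the inhibitor Cdkn1a at 43.7 and 47.4 CPM and Pcna at 36.1 and 38.4 CPM. Nuclear-retained noncoding RNAs held 0.0939% and 0.101%, with Malat1 at 372 and 443 CPM, Gm26917 at 353 and 331 CPM and Neat1 at 212 and 231 CPM. Malat1 and Neat1 were both higher in replicate 2.

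Genes whose proteins take part in the same kind of complex were compared per length, for complexes chosen after values had been seen. The proteins need not be joined in equal or fixed numbers. The fold between the highest and the lowest TPM was 1.12 for Krt8 and Krt18, 1.14 for the 3 fibrinogen chains and 1.19 for the ferritin chains. It was 1.63 for the trifunctional protein of fatty acid oxidation, 1.88 for the 3 chains of C1q, 2.38 for those of C8, a pore component of complement, and 2.82 for 4 succinate dehydrogenase genes. It was 3.61 for 3 genes of MHC class I and 10.1 for the ribosomal stalk (Rplp0, Rplp1 and Rplp2). The length used moved these values in both directions. With the principal transcript as length, a choice made after seeing the data, the fold widened to 1.33 for fibrinogen, 1.41 for ferritin, 2.72 for C8 and 3.55 for succinate dehydrogenase. It narrowed to 1.10 for the trifunctional protein, 1.17 for C1q, 2.94 for MHC class I and 4.72 for the stalk, and that of the keratins stayed at 1.12.

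The libraries agreed closely. Across 22728 genes with at least 1 count in either, Pearson's r of log2(CPM + 1) was 0.997 and Spearman's rho was 0.966, and genes are not independent replicates. The biological coefficient of variation, the spread beyond counting, was 4.14% by edgeR with an intercept only, and 3.56% without the mitochondrial genome. The libraries nevertheless differed by more than counting noise, with a chi-square per degree of freedom of 2.60 over 15544 genes with at least 10 counts together, where counting alone gives about 1. The SD of the log2 ratio was 0.367 for genes of 1 to 10 CPM, 0.131 for 10 to 100, 0.0877 for 100 to 1000 and 0.0471 above, where counting alone gives 0.287, 0.0973, 0.0360 and 0.0103. All 94 genes above 1000 CPM lay within 1.25-fold.

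Of 8163 genes with a mean of at least 10 CPM, only mt-Nd3 and mt-Co3 were more than 2-fold apart. Another 7 were more than 1.5-fold apart, and 143 in all were more than 1.25-fold apart. After mt-Nd3 and mt-Co3, the largest differences were Gm28439, a copy of mt-Nd4, at 1039 and 1760 counts, Gm10925, the copy of mt-Atp6, at 3948 and 6549, and Gm15459 at 950 and 612. Gm15459 is a processed pseudogene that matches the chaperone gene Hspa8 with 99.7% identity over all of its 1941 bases, and Hspa8 itself differed little, at 1921 and 1939 CPM. The next were Gm13509 and Gm13050, pseudogenes that match Ap2m1 with 99.7% and Eef2 with 97.0% identity. With mt-Nd4l, 8 of the 9 genes more than 1.5-fold apart were mitochondrial mRNAs or pseudogenes that match another gene. The other was Sgk3, a protein kinase, at 333 and 217 counts. These pseudogenes were searched for matches after their values were seen, and copies of Sgk3 were not searched. The share of such genes among all 8163 was not counted.

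Longer RNAs leaned to replicate 1. Over protein-coding nuclear genes of at least 10 CPM, the median log2 ratio of replicate 2 to replicate 1 was 0.02 in the 1603 genes with the shortest principal transcripts (345 to 1837 bases) and -0.03 in the 1602 with the longest (5308 bases or more). The SD of the log2 ratio was 0.123 and 0.113 in these classes. The part of length in the higher ribosomal protein and oxidative phosphorylation values of replicate 2 was not tested.

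**Figure D5:**
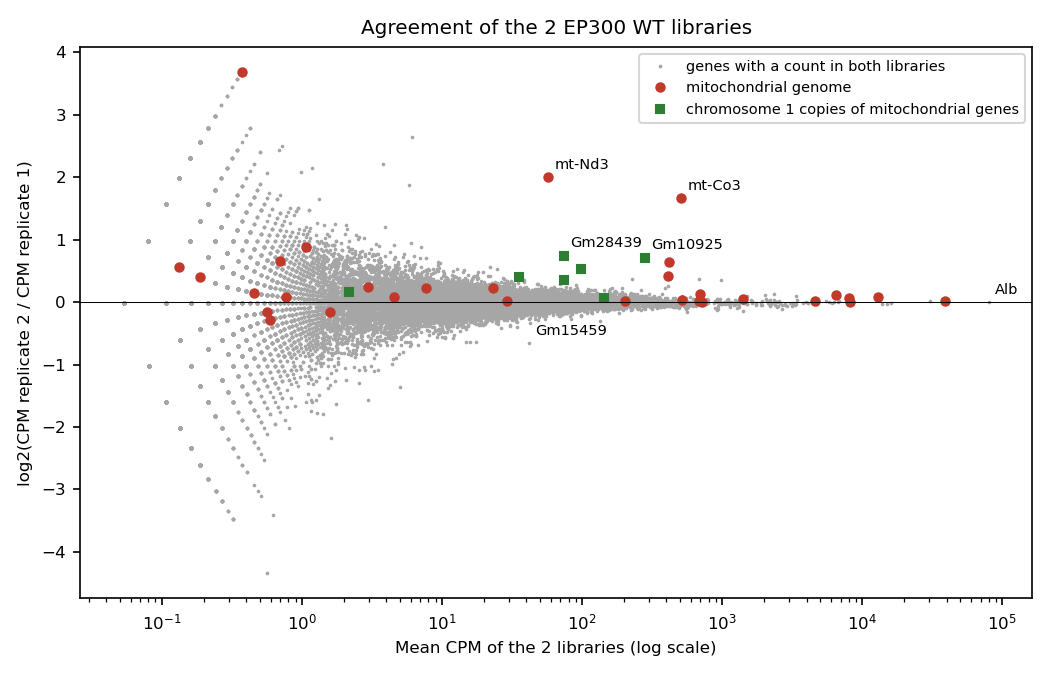
log2 ratio of CPM in replicate 2 over replicate 1 against mean CPM (log axis) for genes with a count in both libraries, with genes of the mitochondrial genome in red and the chromosome 1 copies of mitochondrial genes in green. Most points lie near 0 and the cloud narrows with level, while mt-Nd3, 3.99-fold higher in replicate 2, and mt-Co3, 3.17-fold higher, stand above it.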

How the data were processed

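The authors deposited raw counts of reads per gene, as whole numbers, for the EP300 experiment in 1 table. Of its columns, those of the 2 EP300 WT samples were used, matched by title. A further 4 columns match no sample and were not used. Per the submitters' processing notes, STAR, HTSeq, DESeq2 and mm10 were named with no role, while the name of the count table points to HISAT, so the aligner behind these counts is not settled. Aligner settings, annotation, strand setting and the treatment of reads that fit several genes are not given in the sources used here. Per the labels' protocols a TruSeq RNA kit was used, which does not mark strand. Of 55385 identifiers 55144 have a symbol in GENCODE M21 (GRCm38), which also gave coordinates and exon lengths.

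CPM is the count over the library total (18575701 and 18831671). TPM uses merged exons and only genes with at least 200 exon bases. Intervals are exact binomial at 95%, and SDs are over 2 libraries. Only replicate 1 and replicate 2 of 1 group were described, so no p-value was computed. edgeR 4.0.16 in R 4.3.3 gave the coefficient of variation and TMM factors, DESeq2 1.42.0 gave size factors, and blastn 2.17.0 matched transcripts (at least 90% identity over 100 bases for copies). Scripts for the spread between libraries were tested on simulated data.

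Named genes were the 25 highest by mean CPM, the markers Alb, Trf, Apoa1, Afp, Gpc3, H19 and Igfbp1, the 3 highest of each list, defining markers at 0, and the 5 genes of at least 10 CPM furthest apart between libraries. Other genes named, such as those with overlapping models, were chosen after their values were seen. Members and lists were chosen with earlier results of these data known. A planned look at signal peptides was not run, for want of protein sequences here. Alternatives were TPM, other denominators, filters, pseudocounts and scalings, and each library left out. A few genes that the rule names are not reported here.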

Additional observations from a re-analysis of the deposited data

How the results depend on the processing

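No paired analysis was possible because only 1 group was described and no result comes from a test. Each of 89 alternative values was compared with the spread of the 2 libraries (1 SD), for counts with 1.5 times, and for correlations with 0.01, and 54 stayed within that. The 1 SD bound is narrow, since the libraries nearly agree. Some alternatives could not leave their bound. Each of 2 libraries lies within 1 SD of their mean, so group shares with a library left out had to stay. Spearman's rho cannot change with a pseudocount or with scaling. TMM factors and DESeq2 size factors lay near 1 and could hardly reorder genes. The number that stayed is therefore no measure of robustness. Without the mitochondrial genome the shares became 35.8% (secreted), 1.62% (ribosomal), 0.0878% (oncofetal), 0.0706% (biliary) and 0.354% (other cell types), and the 10, 100 and 1000 highest genes held 23.95%, 43.6% and 68.8%. Per merged exon (TPM) the shares were 36.6%, 2.25%, 0.102%, 0.0559% and 0.341%, with 17.6% for the mitochondrial genome, and the highest genes held 34.6%, 59.4% and 81.7%, 42 genes held 50% and 2515 held 90%. Per principal transcript, chosen after seeing the data, they were 35.5%, 3.21%, 0.0887%, 0.0525%, 0.309% and 13.9%, with 31.7%, 54.8% and 79.3% in the highest genes and 63 genes holding 50%. With only genes of at least 10 counts in both libraries, the oncofetal share was 0.0803%, the highest genes held 26.2%, 47.4% and 71.3%, and Spearman's rho was 0.996. Leaving out a library put the share of the 100 highest genes at 47.28% without replicate 1 and 47.31% without replicate 2. TMM-adjusted sizes and DESeq2 size factors kept all of the 25 and 100 highest genes, and TPM kept 19 and 77. Depth limits genes near 1 CPM.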

Other observations

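Among genes in no list, several were abundant. Clusterin (Clu), a secreted chaperone, was at 3212 and 3065 CPM and fibronectin (Fn1), a matrix and plasma protein, at 2978 and 2849.5 CPM. The alcohol and aldehyde dehydrogenases Adh1 and Aldh2 were at 2268 and 2233 CPM and 1919 and 1891 CPM, and H2-Q10, a secreted class I molecule of liver, was at 1941 and 2094 CPM. Errfi1, a feedback inhibitor of the epidermal growth factor receptor, was at 1617 and 1637 CPM. These genes were picked after their values were seen.

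The labels give no sex. The 4 Y-linked genes were counted in both libraries, from 14.6 and 12.5 CPM for Kdm5d to 58.1 and 57.2 CPM for Ddx3y, and Xist, the RNA of the inactive X chromosome, had 3 and 2 counts. The list of male-biased liver genes held 0.2% and 0.196% of counts, led by Serpina1e at 1658 and 1634 CPM, Cyp2d9 at 192 and 179 CPM and Selenbp2 at 126 and 120.3 CPM. The list of female-biased liver genes held 0.262% and 0.257%, with Cyp2a4 at 2177 and 2128 CPM and Abcd2 at 90.9 and 95.4 CPM. A single gene made up most of each list, and Cyp2a4 and Serpina1e both have close paralogs. Cyp4a12a and Cyp7b1, further male-biased genes, were at 10.1 and 7.17 CPM and 14 and 11.9 CPM.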
